A study of Mus musculus with 8 samples.

Results

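Epithelial keratins were examined in mouse embryonic pancreas lacking Sox9. The group holds 6 genes, Krt8, Krt18, Krt7, Krt19, Krt20 and Krt23, selected on gene name from the array annotation and read through all of their non-control probes. All 6 were on the array, with 8 probes in all, among 19384 genes and unnamed transcripts tested. The list was chosen by an analysis of the same 8 arrays in which the mutant minus wild-type differences were already known, so those differences are given here as a description of the 6 genes and not as a test of them. The Sox9 mutant group held 4 pools of pancreatic epithelium from embryos homozygous for floxed Sox9 and carrying Rosa26-CreER, a tamoxifen-inducible recombinase expressed from a locus active in nearly all cell types, so that deletion was not restricted to the epithelium. The wild-type group held 4 pools from littermates that carried Rosa26-CreER with normal Sox9. The floxed line was on a mixed FVB/N, C57Bl/6J and CD1 background and the Rosa26-CreER line on C57Bl/6J. Tamoxifen was given to the dams of both genotypes at e12.5, at 6 mg for each 40 g, and dorsal and ventral epithelium was pooled 3 days later at e15.5. Each pool came from 4 pancreata, so the spread between arrays is that between pools.

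Keratins are the intermediate filament proteins of epithelial cells. A filament forms only when a type I (acidic) keratin pairs with a type II (basic) keratin, and the pair in use changes with the kind of epithelium. Krt8 (type II) and Krt18 (type I) form the basic pair of simple epithelia, Krt7 (type II) and Krt19 (type I) are added in ducts, and Krt20 (type I) is known from intestinal and gastric surface epithelium, urothelial umbrella cells and Merkel cells. Krt23 is a type I keratin whose role is less well defined.

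The genes lie in 2 clusters. Krt7, Krt8 and Krt18 are on mouse chromosome 15, where Krt18 is the only type I gene beside the type II cluster, and Krt19, Krt20 and Krt23 are in the type I cluster on chromosome 11. In the RefSeq annotation of GRCm38.p6, Krt20 and Krt23 are neighbours with 0 protein-coding genes starting between them and 39.8 kb of separation, and Krt8 and Krt18 are neighbours separated by 23.9 kb. The 250 bases before the annotated starts of Krt20 and Krt23 are shown because these neighbouring genes, both transcribed from the minus strand, moved in opposite directions in the mutant. The Krt20 window is chr11:99438154-99438403 and the Krt23 window is chr11:99493121-99493370 (RefSeq, GRCm38.p6, minus strand, written 5′ to 3′). Capitals mark the letters ACAAT or ACAAAG, the core recognised by SOX family proteins, searched on both strands.
Krt20: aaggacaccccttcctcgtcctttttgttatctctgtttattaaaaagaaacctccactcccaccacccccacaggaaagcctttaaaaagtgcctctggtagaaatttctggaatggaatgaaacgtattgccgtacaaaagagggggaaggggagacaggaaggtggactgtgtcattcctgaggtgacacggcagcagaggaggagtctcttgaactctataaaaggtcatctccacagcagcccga
Krt23: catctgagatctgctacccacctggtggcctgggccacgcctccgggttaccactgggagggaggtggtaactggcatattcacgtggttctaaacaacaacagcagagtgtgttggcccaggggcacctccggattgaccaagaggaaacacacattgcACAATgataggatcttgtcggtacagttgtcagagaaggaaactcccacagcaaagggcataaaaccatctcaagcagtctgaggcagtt
The Krt23 window held 1 match to ACAAT, from base -90 to base -86 before the start, and 0 matches to ACAAAG. The Krt20 window held 0 matches to either. Of the other keratins with a window, Krt18 had 1 match to ACAAAG (as its reverse complement, from base -203 to base -198), and Krt8 and Krt7 had 0 of either. Of 32851 windows of the same length in the RefSeq table, 27.7% held ACAAT and 16.5% held ACAAAG, and 38.8% held at least 1 of them. A match describes the letters and is not a binding site.

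Signals were made comparable between arrays by subtracting the 75th percentile of each array's log2 signal, so every log2 level below is relative to that percentile. Mutant replicate 2 stood apart, with a median processed signal of 756 scanner units, where the other 7 arrays had 219 to 272. It also had 85.9% of probes well above background against 69.0% to 73.4% on the others. Its median correlation with the other mutant arrays, across genes, was 0.923, against 0.994 to 0.996 for the other 7 arrays with their own groups. Counts of calls are given with and without this array where they differ. All mutant arrays were on slide 1 and all wild-type arrays on slide 2, each slide with its own scan, so slide and genotype cannot be told apart. The main Sox9 probe (chromosome 11, 112603585 to 112603644, mm8) read 0.59, 0.40, 0.52 and 0.47 in the mutant arrays, against 1.77, 1.90, 1.87 and 1.77 in wild type. Its mean was 0.50 ± 0.08 in mutants and 1.83 ± 0.07 in wild type (SD, n = 4 each), a log2 difference of -1.33. A second Sox9 probe had a log2 difference of -2.51 and the remaining one was not lower, at 0.63, with mutant replicate 2 far above the other arrays on it.

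Krt20 rose and Krt23 fell in the mutant epithelium, and the 4 other keratins showed differences of 0.35 or less on the log2 scale. Krt20 was 13.3-fold higher in mutants and was the third-highest rise among the 19384 features, while its neighbour Krt23 was 1.74-fold lower. Of the 6 genes, 1 was called higher and 1 lower at an adjusted p under 0.05 in the fit across all features, in which 5.53% of features were called, 2.11% higher and 3.42% lower. Over the 8 single probes the counts were the same, 1 higher and 1 lower, where 3.84% of all probes were called. The median log2 difference of the 6 genes was 0.26, against -0.00447 over all features. In whole epithelium a change in the share of cells that make a keratin and a change in its RNA per cell cannot be told apart.

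Krt8 and Krt18, the paired keratins of all simple epithelia, had small differences between genotypes, and none of the 8 keratin probes was saturated on any array. The reported Krt8 probe (A_51_P242399, chromosome 15, 101824949 to 101825008, minus strand, mm8) read 6.48, 6.15, 6.49 and 6.59 in mutant arrays, against 6.21, 6.27, 6.22 and 6.18 in wild-type arrays. Mutant replicates 1, 3 and 4 lay above all wild-type arrays and mutant replicate 2 lay below them. The log2 difference was 0.21 with an SE of 0.10, and the gene was not called. The second Krt8 probe (A_51_P242400, 101824817 to 101824876), which lies beside the first, had 6.03, 5.60, 6.04 and 6.17 in mutants and 5.88, 5.79, 5.84 and 5.84 in wild type, again with mutant replicate 2 below and the other mutant arrays above all wild-type arrays, and a difference of 0.13 (SE 0.12). RefSeq lists a Krt8 pseudogene, Krt8-ps, and whether its RNA adds to these probes was not tested.

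Krt18 is the type I partner of Krt8 (A_51_P324814, chromosome 15, 101859944 to 101860003, plus strand, mm8). Its levels were 6.35, 6.04, 6.36 and 6.58 in mutants, against 5.84, 5.99, 6.09 and 6.17 in wild type. The log2 difference was 0.31 with an SE of 0.13, the groups overlapped through mutant replicate 2, and the gene was not called. The difference between the partners within each array, which does not depend on how arrays are scaled, was -0.10 ± 0.06 for Krt18 minus Krt8 in mutants and -0.19 ± 0.16 in wild type (SD, n = 4 each), with overlapping groups.

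Krt7 and Krt19 are the keratins added in duct epithelium, and Krt19 is widely used as a duct marker. Krt19 (A_51_P356642, chromosome 11, 99957168 to 99957227, minus strand, mm8) was nearly constant in wild type, at 2.74, 2.73, 2.74 and 2.74, and read 3.20, 2.72, 3.09 and 3.34 in mutants. Here too mutant replicates 1, 3 and 4 were above all wild-type arrays and mutant replicate 2 was just below them. The log2 difference was 0.35 with an SE of 0.13, or 1.27-fold, and was not called. Within arrays, Krt19 minus Krt8 was -3.28, -3.43, -3.40 and -3.25 in mutants and -3.47, -3.53, -3.48 and -3.44 in wild type, so that the groups did not overlap, though mutant replicate 2 and wild-type replicate 4 nearly met.

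The Krt7 probes differed from each other. The reported Krt7 probe (A_51_P312348, chromosome 15, 101255775 to 101255834, plus strand, mm8), named through a full-length cDNA, read 4.10, 3.76, 3.999 and 4.10 in mutants against 3.84, 3.96, 3.85 and 4.10 in wild type, a difference of 0.05 with an SE of 0.11. The second probe (A_52_P410685, 101251321 to 101251380), named through the RefSeq transcript, read 1.49, 1.55, 1.47 and 1.63 in mutants against 1.34, 1.29, 1.28 and 1.25 in wild type. All 4 mutant values of the second probe were above all 4 wild-type values, with a difference of 0.25 (SE 0.06), and it was not called in the fit across all probes. The second probe minus the first was -2.45 ± 0.17 in mutants and -2.65 ± 0.15 in wild type (SD, n = 4 each), with overlapping groups. Of the Krt7 probes, the groups thus overlapped for the first and not for the second.

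**Figure D1:**
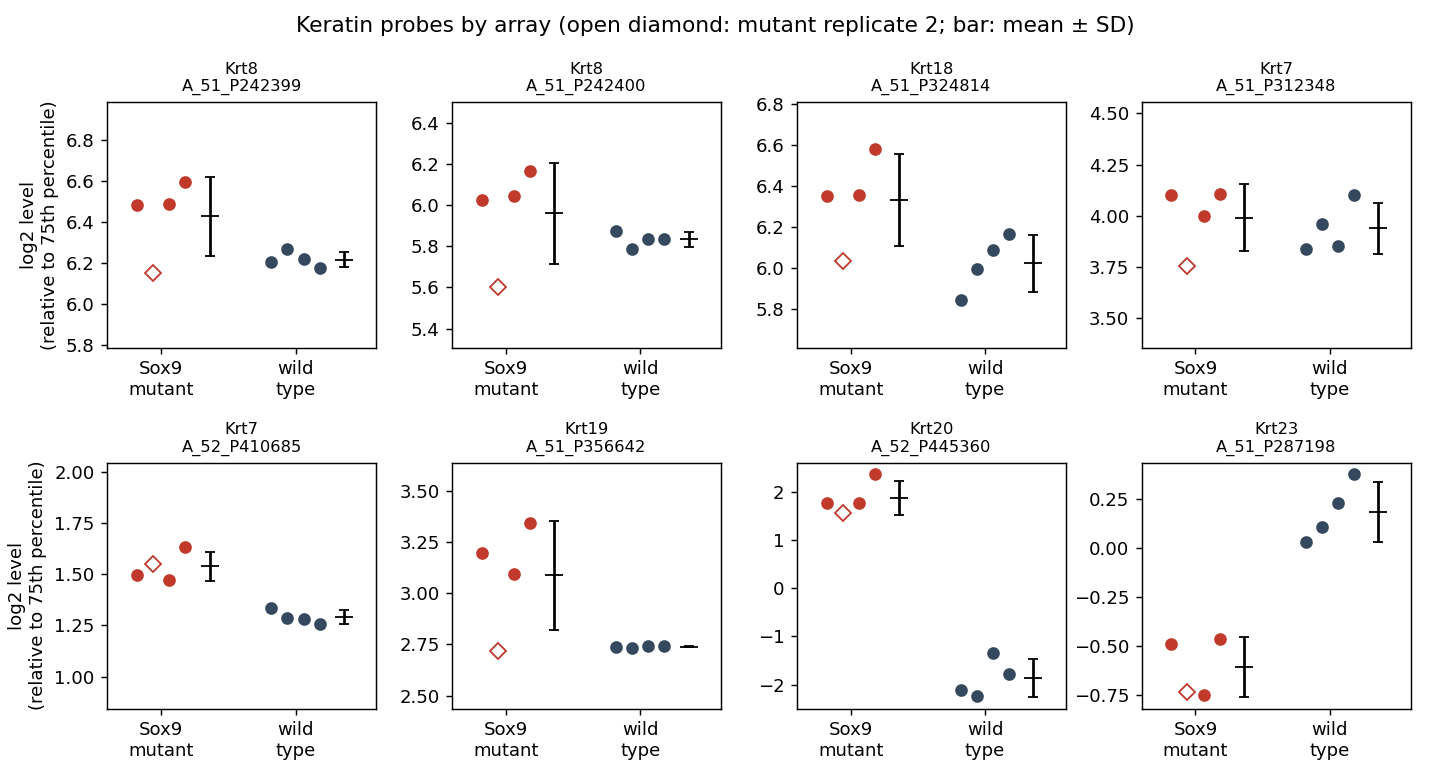
Log2 level (75th percentile of each array subtracted) of the 8 probes of the 6 keratin genes, with Sox9 mutant arrays left and wild-type arrays right in each panel, and the mean ± SD of 4 arrays as a bar. Vertical scales differ between panels. The open diamond is mutant replicate 2, which lies apart from the other mutant arrays for Krt8, Krt18, Krt19 and the first Krt7 probe and within or near them for Krt20, Krt23 and the second Krt7 probe.

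Krt20, the keratin of intestinal and gastric surface cells and of umbrella cells, had the widest difference of the 6 (A_52_P445360, chromosome 11, 99244552 to 99244611, minus strand, mm8). Its processed signal was 7773, 7227, 6958 and 10645 scanner units in the mutant arrays, against 455, 437, 735 and 642 units in wild-type arrays. The log2 levels were 1.77, 1.57, 1.76 and 2.37 in mutants and -2.11, -2.24, -1.34 and -1.78 in wild type, with the probe well above background on all 8 arrays. The lowest mutant array was 2.90 above the highest wild-type array on the log2 scale, and mutant replicate 2 lay with the others. The mean was 1.87 ± 0.35 in mutants and -1.87 ± 0.40 in wild type (SD, n = 4 each), a log2 difference of 3.73 with an SE of 0.25. Krt20 kept its call whichever of the 8 arrays was left out and in the 9 other alternatives, with log2 differences between 3.33 and 3.92.

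Krt23 changed in the opposite direction (A_51_P287198, chromosome 11, 99294169 to 99294228, minus strand, mm8). It read -0.49, -0.73, -0.75 and -0.47 in mutants, against 0.03, 0.11, 0.23 and 0.38 in wild type. Every mutant array was below every wild-type array, by at least 0.49 on the log2 scale. The mean was -0.61 ± 0.15 in mutants and 0.19 ± 0.15 in wild type (SD, n = 4 each), a log2 difference of -0.80 with an SE of 0.11. Krt23 kept its call whichever of the 8 arrays was left out and in 6 of the 9 other alternatives, and lost its call with arrays centred on their median, with normexp background correction and with the replicate number as a block. The groups did not overlap in 2 of the 6 genes, Krt20 and Krt23, where 25.8% of all features had groups that did not overlap.

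The keratins thus differed in the size and direction of their change. Krt20 minus Krt23 within an array was 2.26, 2.30, 2.51 and 2.84 in mutants and -2.14, -2.34, -1.57 and -2.16 in wild type, a shift of 4.53. Krt20 minus Krt19 was -1.22 ± 0.20 in mutants and -4.61 ± 0.40 in wild type, a shift of 3.38. Krt23 minus Krt19 was -3.70 ± 0.18 in mutants and -2.55 ± 0.15 in wild type (SD, n = 4 each), a shift of -1.15. None of these 3 differences overlapped between genotypes. For Krt20 minus Krt23 this follows from the separation of each gene in opposite directions and adds no further evidence. All 3 are differences of probe signals, whose absolute values depend on the probes and are read only for how they shifted.

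Without mutant replicate 2, 4 of the 6 genes were called higher, Krt8, Krt18, Krt19 and Krt20, and 1 was called lower, Krt23, in a fit in which 17.3% of all features were called. Krt8 was then 1.24-fold, Krt18 1.33-fold and Krt19 1.39-fold higher, against 1.16-fold, 1.24-fold and 1.27-fold with all arrays. Both Krt8 probes and the second Krt7 probe were among the 6 probes called higher without that array, with 1 called lower, where 16% of all probes were called. The first Krt7 probe, at a log2 difference of 0.13, was not called. Krt20 was 14.3-fold higher without that array. At the reported settings, the call for Krt8, Krt18 and Krt19 thus turned on the 1 array that stands apart. Their call also depended on the settings given below.

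**Figure D2:**
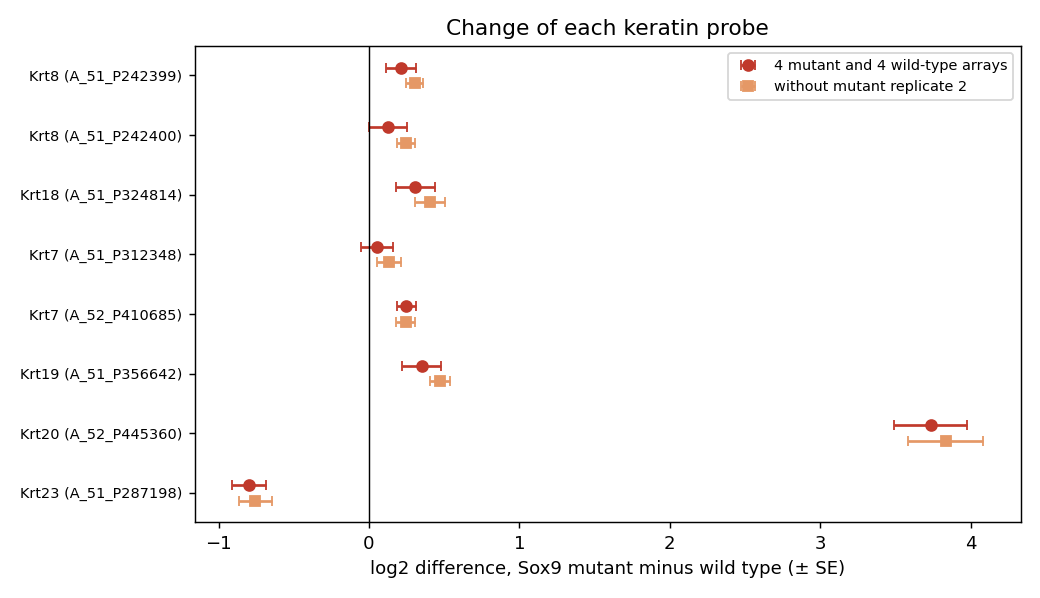
Log2 difference, Sox9 mutant minus wild type, with its SE for the 8 keratin probes, from all 8 arrays (circles) and without mutant replicate 2 (squares). With all 8 arrays Krt20 lies at 3.73, Krt23 at -0.80 and the other probes between 0.05 and 0.35. Without that array Krt20 lies at 3.83, Krt23 at -0.76 and the others between 0.13 and 0.47, with smaller SEs for both Krt8 probes, Krt18 and Krt19.

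Settings mattered for the small differences and not for the sign of the large ones. With quantile normalization, with array weights or with the authors' deposited series table, Krt8, Krt18 and Krt19 were called higher with all 8 arrays. Centring arrays on their median in place of the 75th percentile moved the median log2 difference of all features to -0.40, and the differences of Krt8, Krt18, Krt7 and Krt19 then became -0.19, -0.09, -0.35 and -0.05. Relative to that shift of all features they were 0.22, 0.31, 0.06 and 0.35, close to the values above. Krt20 had 3.33 and Krt23 had -1.20 with that centring.

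**Figure D3:**
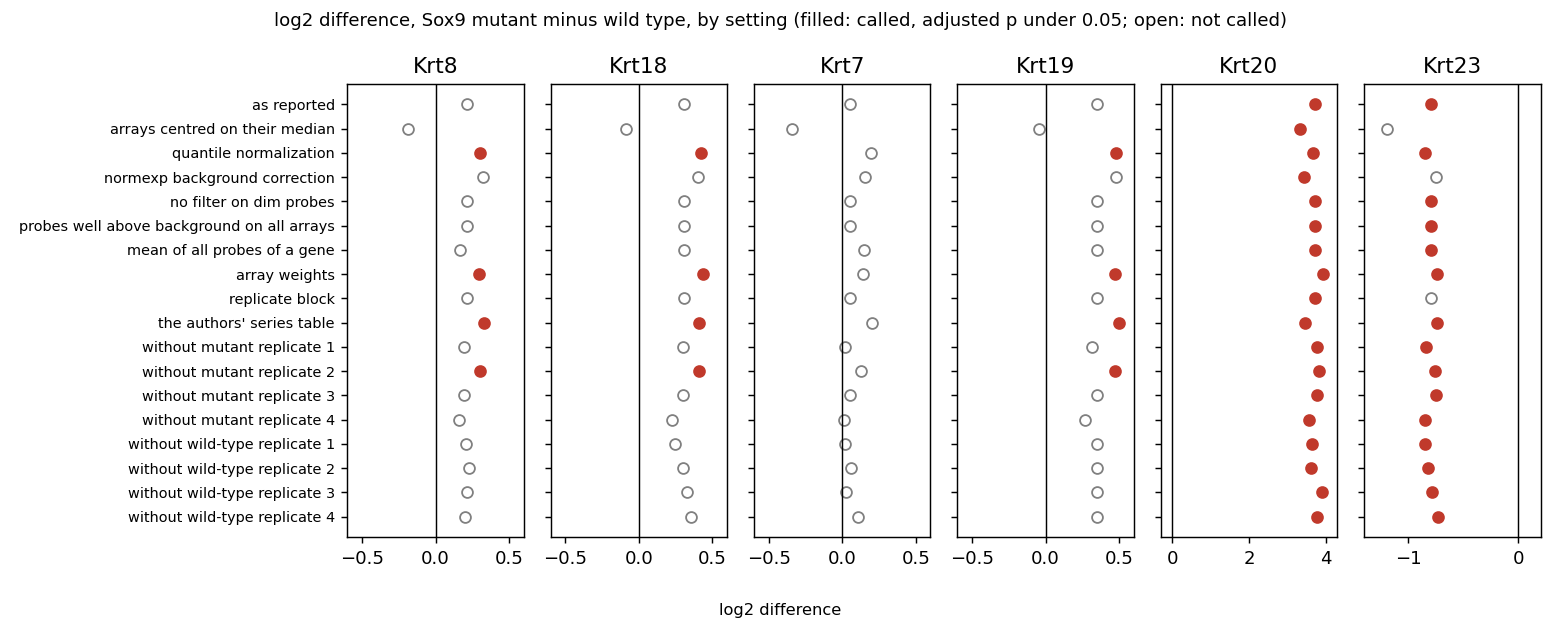
Log2 difference, Sox9 mutant minus wild type, of the 6 keratin genes (columns) under the reported setting and 17 alternatives (rows), with filled points where the gene was called at an adjusted p under 0.05; horizontal scales differ between columns. Krt20 is called in every row, Krt23 in 15 of the 18, Krt7 in 0, and Krt7, Krt8, Krt18 and Krt19 change sign with arrays centred on their median.

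The other keratins of the array were set beside these genes. Of 39 other keratin genes, 19 had a probe well above background on at least 4 arrays. Among those 19, 1 was called higher and 1 lower, where 5.53% of all features were called. The median log2 difference of the 19 was 0.42. Without mutant replicate 2, 4 were called higher (Krt10, Krt13, Krt25 and Krt79) and 2 lower (Krt80 and Krt84), with a median of 0.11. In that fit 17.3% of all features were called. Krt25 passed the filter through mutant arrays only, so its call is not read as a result. Mutant replicate 2 had a mean level of -2.33 over these 19 genes, against -3.91 to -3.62 on the other mutant arrays and -4.11 to -3.77 in wild type. Krt80, a type II keratin whose gene lies near Krt7 on chromosome 15, fell 1.72-fold (log2 difference -0.78, SE 0.14, adjusted p = 0.0273 by limma), with every mutant array below every wild-type array. Krt13, a type I keratin of stratified epithelia, rose 1.31-fold (log2 difference 0.39, SE 0.09, adjusted p = 0.0493 by limma), also with no overlap. Each call held in 2 of the 8 fits that left out 1 array. For Krt80 they were those without mutant replicate 2 or 4, and for Krt13 those without mutant replicate 2 or 3. With arrays centred on their median Krt13 had -0.01, where the median of all features was -0.40.

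The basal keratins of stratified epithelia did not pass with all arrays or without mutant replicate 2. Krt5 had a log2 difference of 0.42 (adjusted p = 0.436 by limma), Krt14 of 0.33 (adjusted p = 0.374) and Krt15 of 0.12 (adjusted p = 0.737). Krt17 had 0.70 (adjusted p = 0.215). Krt10, of differentiating epidermis, had 0.33 (adjusted p = 0.117 by limma) with groups that did not overlap, and was called without mutant replicate 2 at 0.40 (adjusted p = 0.0311). Krt25, a hair follicle keratin, was well above background on 4 mutant arrays and 0 wild-type arrays and was not called with all arrays. It passed the filter through mutant arrays only, so its fits are not read as tests. Its mutant signal was at least 2.42-fold that of wild type with mutant replicate 2 and at least 1.24-fold without it. Mutant replicate 2 read -2.22 against -6.19 to -5.92 on the other mutant arrays. Krt12, whose gene lies on the other side of Krt20 from Krt23, was well above background on 2 mutant arrays and 0 wild-type arrays and was not tested.

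**Figure D4:**
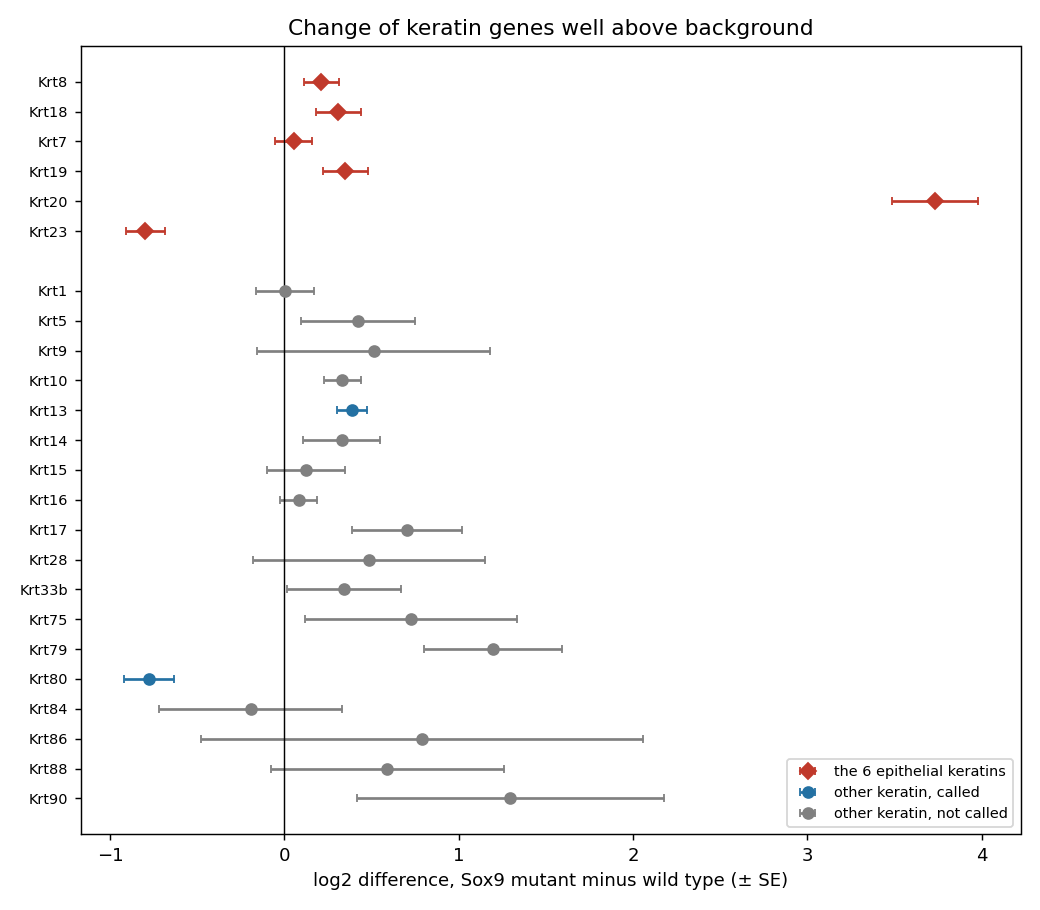
Log2 difference, Sox9 mutant minus wild type, with its SE for the 6 epithelial keratins (diamonds, top) and for 18 other keratin genes (circles). Each of the 18 was well above background on at least 1 array of each genotype. Krt20 stands at 3.73, and the called genes among the others are Krt13 at 0.39 and Krt80 at -0.78.

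Keratin filaments are anchored to desmosomes and hemidesmosomes by plakins, plakophilins and integrins. Of 19 tested anchoring genes, 1 was called higher and 1 lower, where 5.53% of all features were called. The median log2 difference of the 19 was -0.06. Eppk1, which encodes epiplakin, a plakin that binds keratin filaments, rose 1.66-fold (log2 difference 0.73, SE 0.11, adjusted p = 0.0136 by limma). It read -2.55, -2.27, -2.57 and -2.55 in mutants and -3.18, -3.27, -3.40 and -3.01 in wild type, and was called in 7 of the 8 fits that left out 1 array, all but the one without wild-type replicate 2. Of the 9 other alternatives it was called in 4, and over all alternatives its log2 difference ran from 0.12 to 0.80. Itga6, the hemidesmosomal integrin alpha chain, fell 1.497-fold (log2 difference -0.58, SE 0.12, adjusted p = 0.0358 by limma), and of the fits that left out 1 array was called only in the one without mutant replicate 2. The desmosomal linker Dsp had a log2 difference of -0.10 (adjusted p = 0.557) and the cytolinker Plec had -0.02 (adjusted p = 0.884). Without mutant replicate 2, 5 anchoring genes were called higher and 2 lower, in a fit in which 17.3% of all features were called. Jup (plakoglobin) was among the higher at 0.33 (adjusted p = 0.0373 by limma).

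Intermediate filament genes outside the keratin family had 0 calls among 15 tested by limma, with 3 at an unadjusted p under 0.05 by the same fit. Their median log2 difference was -0.09. Over all 19384 features, 4944 had an unadjusted p under 0.05 in that fit. Des, the filament of muscle, had 0.28 (adjusted p = 0.0665 by limma) and was the 1 gene of the list called without mutant replicate 2, at 0.23 (adjusted p = 0.0229). Nefh, a neurofilament subunit, had -0.38 with all arrays (adjusted p = 0.0672). Vim, the filament of mesenchymal cells, had -0.14 (adjusted p = 0.374).

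Markers of cell types that carry keratins were read beside these values. The pan-epithelial list had 1 of 20 genes higher and 2 lower, the lower ones Ehf (log2 difference -0.48) and Tjp3 (-0.37), each called with only mutant replicate 2 left out among the 8 arrays, with a mean level of 1.29 to 1.51 in mutants and 1.37 to 1.52 in wild type. The duct list had 2 of 13 higher, Hes1 (0.53) and Onecut1 (0.94), and 3 lower, Spp1 (-1.14), Cldn10 (-0.73) and Sox9, the deleted gene. Leaving out 1 array, the call held in all 8 fits for Hes1, Spp1 and Sox9, in 6 for Cldn10 and in 4 for Onecut1. Without mutant replicate 2 the counts were 4 higher and 3 lower, where 17.3% of all features were called. Duct genes had a mean level of 0.48 to 0.75 in mutants and 0.46 to 0.53 in wild type. Mesothelium, which also makes simple keratins, had 1 of 8 genes higher, Upk1b (0.67, called without mutant replicate 2 and with no other array left out), and 0 lower, with mean levels of -0.22 to -0.12 in mutants and -0.39 to -0.12 in wild type. Their part in the keratin results was not tested.

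Gut epithelium, for which Krt20 is a known marker, had 0 of 13 tested genes called by limma, 1 at an unadjusted p under 0.05 (Sox2, 0.42), and 5 of 18 genes too dim to test, among them Cdx1 and Gkn1. Over all 19384 features, 4944 had an unadjusted p under 0.05 by limma. Without mutant replicate 2, Sox2 was called higher, at 0.37 (adjusted p = 0.0452 by limma), and 0 genes lower. The mean level of the list was -3.63, -1.69, -3.78 and -3.73 in mutants and -2.10, -3.72, -3.87 and -2.63 in wild type. Cdx2, an intestinal transcription factor gene chosen for display after its values were seen, read -6.96, -1.67, -7.14 and -7.71 in mutants and -1.99, -6.36, -6.12 and -2.95 in wild type. The mean level of the gut list was thus higher on mutant replicate 2 and on wild-type replicates 1 and 4. Mutant replicate 2 was also the highest array over the 19 other keratins tested, at -2.33. Its height was thus not particular to gut genes. The brighter gut genes Vil1 and Anxa13 were lowest on that array, at 0.63 and 0.90. The Krt20 levels of the same arrays are given above. The part of gut epithelium in the Krt20 difference was not tested.

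Other cell type lists were read in the same way. Of all features, 5.53% were called with all arrays and 17.3% without mutant replicate 2. Endocrine genes had 0 of 12 higher and 7 lower (11 lower without mutant replicate 2), including Neurog3 (log2 difference -1.89) and Insm1 (-1.67), and neuron and Schwann cell genes had 0 of 7 higher and 3 lower, including Sox10 (-1.05) and S100b (-1.63). Erythroid genes had 2 of 5 higher, Hbb-y (1.67, called in 3 of the 8 fits that left out 1 array) and Hba-x (1.42, called in 2 of them), and 0 lower, with mean levels of -1.44 to 0.27 in mutants and -2.03 to -1.43 in wild type. Mesenchyme had 1 of 11 higher, Nkx3-2 (0.57), and 0 lower (1 lower, Lum, without mutant replicate 2), while acinar (10 tested) and endothelial (6 tested) genes had 0 called by limma. Acinar genes had 2 at an unadjusted p under 0.05 and endothelial genes 0, where 4944 of all 19384 features did. Without mutant replicate 2, Bhlha15 of the acinar list was called lower, at -0.35 (adjusted p = 0.0182 by limma), and 0 endothelial genes were called. The part of these lists in the keratin differences was not tested.

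The features most like each called keratin were sought among the 15815 with a current symbol. Distance was the root mean square between profiles over the 8 arrays, each profile centred on its own mean. For Krt20 the nearest were Kctd14 (distance 0.52 on the log2 scale, 14.7-fold higher in mutants), Akr1c14 (0.63), Reg3g (0.71) and Ankrd1 (0.72). For Krt23 they were Vapb (0.07, 1.86-fold lower in mutants), Rab5c (0.07), Mlxipl (0.08) and Ppp1r16b (0.09). The distances rest on the same genotype difference that describes Krt20 and Krt23.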

How the data were processed

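RNA from 8 pools of mouse pancreatic epithelium, 4 Sox9 mutant and 4 wild type, was labelled with Cy3 (about 250 ng each) and read on one-colour Agilent arrays of design 014868. The authors deposited, per the file headers, Agilent Feature Extraction 9.5.3.1 output, whose processed signal is an intensity with background subtracted and spatial trends removed within the array and no normalization between arrays. The raw mean spot and local background intensity of the same deposited files were used only for the normexp alternative (offset 50). The deposited table of the authors' processed values, an intensity for 40928 probes of unstated scaling, was used only as an alternative. Per the submitters' processing notes the authors used limma, with version and steps not given in the sources used here.

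Control spots and outlier spots were left out, spots of a probe averaged on the log2 scale, and each array's 75th percentile subtracted. Probes well above background on at least 4 arrays were kept, and the probe with the highest mean over the 8 arrays was kept for each gene (19384 features). Of 41174 probes, 24493 were named through an accession, 6235 through the symbol and 2387 through a synonym in a RefSeq table of GRCm38.p6, and 8059 had no current symbol. Mutant and wild-type arrays were compared by limma 3.58.1 (lmFit, eBayes, two-sided) under R 4.3.3, with p-values adjusted over the 19384 features by Benjamini-Hochberg and called under 0.05. A second fit over all probes gave single-probe values and all member SEs. A missing array, in 8 features and in none of the 6 keratins, was dropped for that feature. The fit was checked on simulated data with the spread of the wild-type arrays, which held no array like mutant replicate 2. Probe coordinates are those of the files (mm8). Promoter windows came from RefSeq (GRCm38.p6) for 5 of the 6 members. Array number and signal limit the precision. Spread is between pools of 4 embryos.

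The members and all gene lists were chosen with earlier results of these data known. Genes named were Sox9, every member probe, called genes of each keratin list (up to 5, or the 2 of smallest p), up to 2 called genes of each marker list, and the 4 nearest profiles of each called member. Others (among them Krt5, Krt10, Krt12, Krt14, Krt15, Krt17, Krt25, Krt79, Krt84, Dsp, Plec, Jup, Vim, Hes1, Onecut1, Cldn10, Bhlha15, Lum, Cdx1, Cdx2, Gkn1 and Sox2) were named after their values were seen. Replicate numbers are shared between genotypes but no label ties them to a shared litter or day, and deviations of same-numbered arrays correlated at 0.02, -0.02, 0.05 and 0.13, so they were not treated as pairs. Alternatives were median centring, quantile normalization, normexp, 2 other filters, probe averaging, array weights, the replicate block, the authors' table and each array left out.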

Additional observations from a re-analysis of the deposited data

How the results depend on the processing

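With the reported settings 1072 features were called, 409 higher and 663 lower in mutants, and 4944 had an unadjusted p under 0.05. The number called was 45 with arrays centred on their median, 106 with normexp background correction, 397 with no filter on dim probes, 145 with the replicate block, 4684 with array weights and 2182 with the authors' series table, and 357 to 3362 with 1 array left out. The highest of these was without mutant replicate 2, and leaving out any single array of either genotype moved the count by more than 1.5 times. The remaining alternatives gave counts within 1.5 times of 1072. The share of higher calls was 21 of 45 with median centring, 23 of 106 with normexp and 70 of 145 with the replicate block. The log2 differences that turned negative, all with arrays centred on their median, were those of Krt8 (-0.19), Krt18 (-0.0894), Krt7 (-0.35) and Krt19 (-0.0484), with the median of all features at -0.40. With that centring Sox9 (-1.73) and Krt23 (-1.20) kept their direction and lost their call. Krt23 also lost it with normexp (-0.75) and the replicate block (-0.80), and Krt20 (3.73) kept its call with the block. The replicate numbers did not pair the arrays, and a call lost under the block is not read as a weaker effect. Dim keratins are limited by signal over background on mutant replicate 2. The cause of these changes was not tested.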
